A study of Mus musculus with 12 samples.

Results

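Deletion of both Apc copies was compared with intact Apc in sorted mouse intestinal cells by RNA sequencing. The comparison used 8 of the 12 libraries of the series: 4 labelled Apc_KO, from ApcFlox/Flox mice, and 4 labelled Apc_WT, from Apc+/+ mice. The other 4 libraries, labelled Apc_HET and from ApcFlox/+ mice, entered the joint estimate of the spread and are given only where they place a value. All mice were C57BL/6 and carried the Lgr5-CreERT2-ires-eGFP knock-in, in which Lgr5 drives a tamoxifen-activated Cre recombinase and green fluorescent protein. All received tamoxifen by 1 injection and then in the diet for 5 days, and epithelial cells positive for GFP were sorted on day 15. The control libraries thus share the knock-in allele, the drug and the sort with the deleted ones. The labels give neither age nor sex nor batch and do not say whether the sorted cells were checked for recombination. They also do not say that the 4 libraries of a genotype came from separate animals, so the p-values measure the spread between these libraries, which may be technical.

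Apc is a scaffold of the complex that marks β-catenin for destruction. When Apc is lost, β-catenin accumulates, enters the nucleus and acts with TCF/LEF factors to switch on Wnt target genes; in the crypt this normally happens at the base, where Lgr5-positive stem cells divide. Their daughters leave the base and mature into absorptive enterocytes, which take up and process nutrients, or into goblet, enteroendocrine, Paneth and tuft cells. Loss of Apc in the intestinal stem cell is the classical first step of adenoma formation in this organ.

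Expression was taken from the deposited table of FPKM, sequenced fragments scaled to transcript length and to all mapped fragments of a library, summed per gene name. Of 14082 named genes with a usable value, 12962 reached 1 FPKM in at least 4 libraries and were tested with limma on log2(FPKM + 1). All log2 fold changes below are Apc_KO minus Apc_WT on that scale, which understates the change of low genes. Errors of means are SDs over 4 libraries per genotype. A gene is said to have risen or fallen where its Benjamini-Hochberg adjusted p over all 12962 genes was under 0.05, and gene lists are described by counts and medians only. In bulk RNA, fewer cells of a type and less RNA per cell cannot be told apart.

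Apc itself was listed at 9.97, 6.91, 10.48 and 8.20 FPKM in Apc_WT libraries 1 to 4 and at 17.3, 12.9, 15.3 and 9.94 in Apc_KO libraries 1 to 4. The gene-level value does not separate reads of the floxed exon, so it does not show the deletion. Its difference was 0.58 on the log2 scale with an exact two-sided permutation p of 0.0857, where 4 against 4 libraries cannot give less than 0.0286. Epithelium markers summed to 2307 to 2744 FPKM in Apc_WT and 2078 to 3395 in Apc_KO over 9 measured of 10 listed genes, with Krt19 below 1 FPKM in all 8 libraries. The sums hide opposite changes: at an unadjusted p under 0.05 limma had 5 of 8 tested epithelium markers lower and 1 higher. Leukocyte markers (10 of 16 measured) summed to 14.2 to 38.1 and 3.72 to 32.3 FPKM, with Ptprc, Cd79a and Ms4a1 below 1 FPKM in all 8, though the loci listed for Ptprc and Ms4a1 span only 44.5% and 8.17% of the gene. Endothelium markers (7 of 12 measured) summed to 54.2 to 82.5 and 175 to 306 FPKM, of which Prox1 alone averaged 118 ± 44.0 in Apc_KO. Stroma and smooth muscle markers (8 of 14) summed to 11.03 to 108 and 136 to 164 FPKM, the latter mostly Vim. Neuron and glia markers (3 of 8) summed to 0.436 to 2.30 and 7.95 to 9.51 FPKM, and erythrocyte and platelet markers (2 of 8) to 0.839 to 7.39 and 1.11 to 121. Among crypt base markers, Lgr5, the receptor that defined the sort, had 23.8 ± 4.35 FPKM in Apc_WT and 41.0 ± 16.8 in Apc_KO (log2 fold change 0.70, SE 0.23, adjusted p = 0.027). The call was lost with size factors (adjusted p = 0.0716), with quantile normalization (0.0645) and with only the 8 Apc_WT and Apc_KO libraries (0.0545). It was also lost without Apc_WT library 2, 3 or 4 (adjusted p = 0.054, 0.073 and 0.066). Olfm4, a secreted protein of crypt base cells, fell from 5462 ± 340.4 to 391 ± 343 FPKM (log2 fold change -4.42, SE 0.65, adjusted p = 1.5e-04).

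Loss of Apc changed a large part of the transcriptome. Of the 12962 genes tested, 3613 rose (27.9%) and 2291 fell (17.7%), together 45.5%. Changes of at least 2-fold on this scale numbered 1535 upward (11.8%) and 1033 downward (7.97%). The median over all genes was 0.12, and with DESeq2-type size factors, which moved it to 0.01, 2851 genes rose and 2830 fell. Quantile normalization gave 2764 upward and 3043 downward calls with a median of -0.02. The excess of upward calls in the deposited values was thus nearly gone with size factors and turned with quantile normalization, and a median near 0.12 is the level against which list medians are read. The libraries of the 2 genotypes did not overlap for 5233 genes (40.4%).

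The direction differed sharply between functional groups. Lists of nutrient handling had more falls than rises: conjugating enzymes, lipid absorption, fatty acid oxidation, sugar and organic acid transport, and the microvillus. Lists of matrix, developmental transcription factors and Hippo and Hedgehog components had more rises than falls. A gene silent in Apc_WT could be tested only through libraries of another genotype, so genes silent throughout are not counted. Ribosomal proteins and replication genes had few calls or none. All list counts below are to be read beside the shares over all genes tested, 27.9% higher and 17.7% lower.

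**Figure D1:**
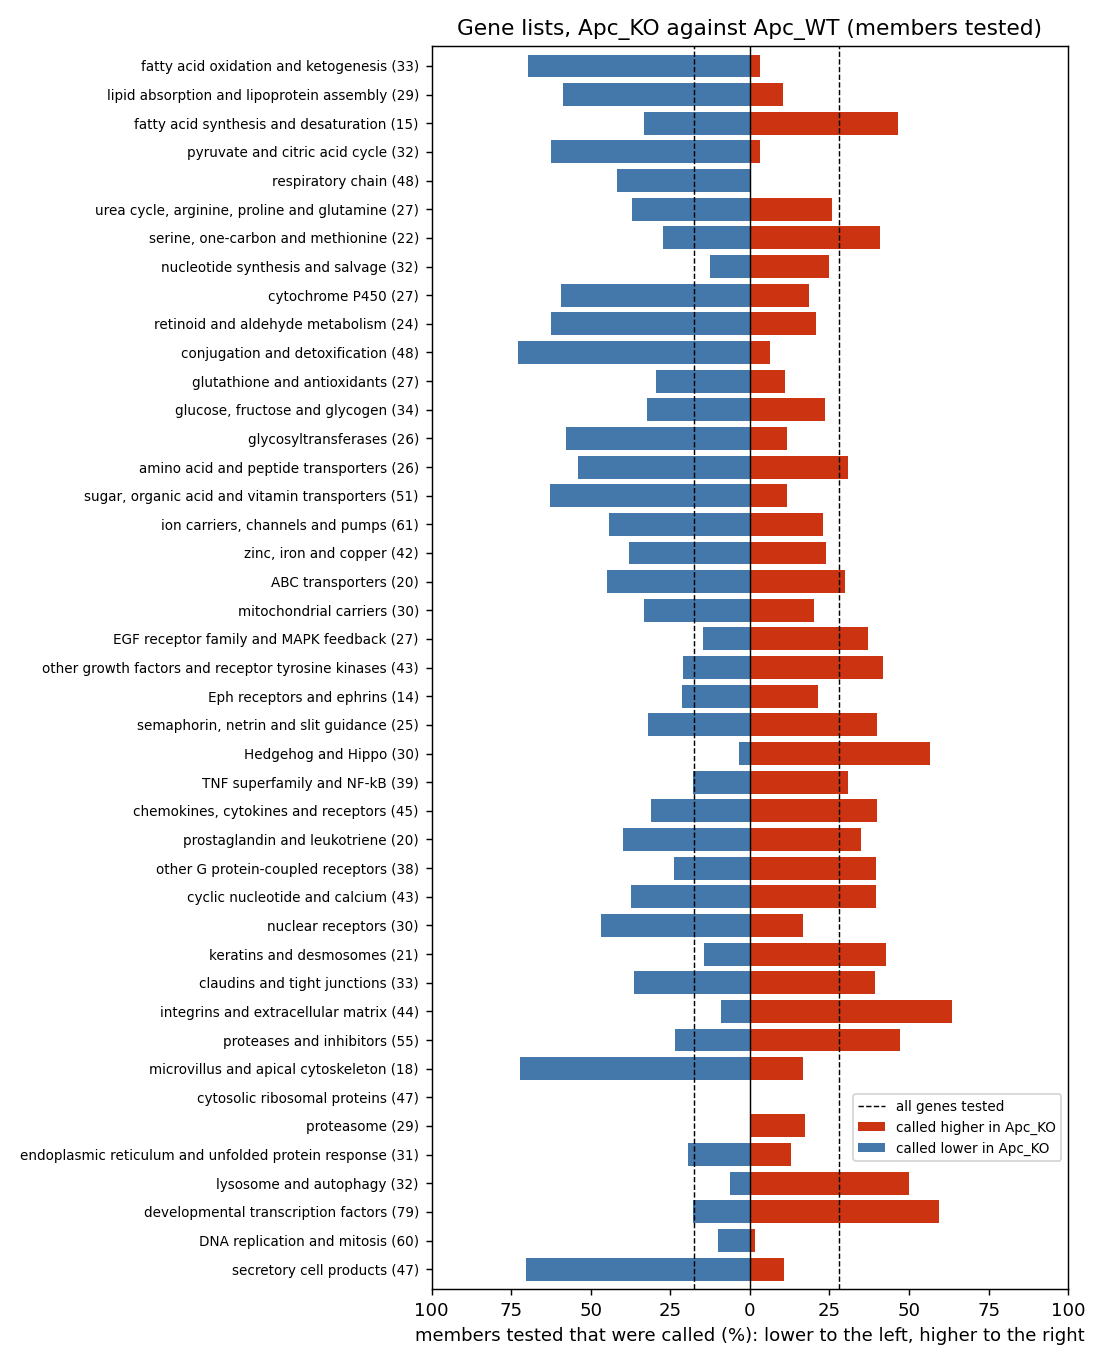
Share of the tested members of each gene list that were called higher (right, red) or lower (left, blue) in Apc_KO, with the number tested in brackets; the dashed lines are the shares over all genes, 27.9% and 17.7%. Conjugation enzymes, with 35 of 48 members lower, lie far to the left, and the matrix list, with 28 of 44 higher, far to the right.

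Genes of fatty acid oxidation fell. Of 33 tested members, 23 fell, 1 rose and 9 did not pass, beside 17.7% and 27.9% over all genes tested, and their median was -0.89. Ppara, the nuclear receptor that switches on fatty acid oxidation, was listed at 9.51, 8.65, 7.04 and 9.37 FPKM in Apc_WT and 0.525, 0.778, 1.09 and 0.517 in Apc_KO (log2 fold change -2.48, SE 0.20, adjusted p = 1.0e-06). Its coactivator Ppargc1b, which also drives mitochondrial genes, fell from 9.29 ± 0.481 to 1.38 ± 0.423 FPKM. Neither gene's libraries overlapped between genotypes. The peroxisomal bifunctional enzyme Ehhadh went from 30.4, 28.5, 27.0 and 38.4 FPKM to 5.84, 5.68, 5.82 and 5.39 (log2 fold change -2.25, SE 0.15, adjusted p = 2.8e-07), and 5 of 6 peroxisomal members fell. In the mitochondrial spiral 9 of 14 members fell, while Acadl, a long-chain acyl-CoA dehydrogenase, rose from 43.0 ± 5.17 to 68.5 ± 17.8 FPKM (log2 fold change 0.63). The Acadl call was lost with size factors (adjusted p = 0.0526), with array weights (0.0857) and without Apc_WT library 3 (0.0533). Without Apc_KO library 3 the list had 2 rises. The ketone body enzymes Bdh1 (-2.24 ± 0.23, log2 fold change ± SE) and Acat1 (-1.99 ± 0.22) fell; Acat1 went from 129 ± 15.7 to 33.0 ± 10.4 FPKM.

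Uptake of dietary lipid and its packing into lipoproteins fell further. Of 29 members, 17 fell and 3 rose, with a median of -1.47. Fabp1, the liver-type fatty acid binding protein of enterocytes, was listed at 401, 451, 429 and 1218 FPKM in Apc_WT and 20.3, 85.7, 41.2 and 72.4 in Apc_KO. Apc_WT library 4 held the most by a wide margin, and every Apc_KO library lay below every Apc_WT library (log2 fold change -3.51, SE 0.60, adjusted p = 4.9e-04). Fabp2, the intestinal form, fell from 334 ± 201 to 25.5 ± 13.6 FPKM. Npc1l1, the cholesterol uptake receptor, fell from 38.4 ± 8.66 to 2.21 ± 0.882 FPKM (log2 fold change -3.64, SE 0.29, adjusted p = 1.0e-06). Apoc3 and Tm6sf2, which act in lipoprotein assembly and secretion, had log2 fold changes of -3.67 and -3.28. Against this run Scarb1, a receptor for high-density lipoprotein, rose from 4.49 ± 1.04 to 18.5 ± 3.51 FPKM (log2 fold change 1.83, SE 0.17, adjusted p = 3.8e-06); the list's upward calls numbered 1 without Apc_KO library 2.

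Fatty acid synthesis and desaturation did not follow the absorption genes. Of 15 members 7 rose and 5 fell, with a median of 0.20. Scd1, a stearoyl-CoA desaturase that makes monounsaturated fatty acids, was nearly silent in Apc_WT at 0.277, 0.158, 0.157 and 0.680 FPKM and stood at 14.8, 20.8, 18.3 and 12.8 FPKM in Apc_KO. All 4 Apc_KO libraries lay above all controls. Its paralogue Scd2 went from 11.4, 13.8, 48.1 and 11.7 FPKM to 144, 152, 148 and 84.4 (log2 fold change 2.82, SE 0.39, adjusted p = 9.0e-05), with library 4 the lowest of the Apc_KO group. Fasn, the fatty acid synthase, rose from 26.6 ± 9.05 to 53.1 ± 13.2 FPKM (0.99 on the log2 scale). Elovl6, an elongase, fell from 22.3 ± 3.07 to 9.15 ± 4.13 FPKM.

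The citric acid cycle fell almost as a whole. Of 19 cycle genes 16 fell, none rose and 3 did not pass, with a median of -0.82; of 13 genes of pyruvate entry 4 fell and 1 rose, with 2 rises over the list without Apc_KO library 1. No cycle gene was higher at an unadjusted p under 0.05 either. Sdha, the catalytic subunit of succinate dehydrogenase, was listed at 247, 248, 264 and 241 FPKM in Apc_WT and 93.5, 133, 140.5 and 85.9 in Apc_KO (log2 fold change -1.17, SE 0.16, adjusted p = 1.0e-04). The groups did not overlap. Ogdh, of the 2-oxoglutarate dehydrogenase complex, fell from 98.2 ± 10.98 to 39.0 ± 11.3 FPKM, and Me2, the mitochondrial malic enzyme, from 73.1 ± 1.89 to 20.6 ± 6.18 FPKM (log2 fold change -1.83, SE 0.18, adjusted p = 6.4e-06). Sdhc, a membrane anchor of succinate dehydrogenase, fell from 175 ± 13.3 to 83.0 ± 18.4 FPKM. In each Apc_KO library between 15 and 18 of the 19 cycle genes lay below every Apc_WT library.

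The respiratory chain fell in part, and Apc_KO library 4 stood apart in it. Of 48 nuclear-encoded members 20 fell and none rose, with a median of -0.61; at an unadjusted p under 0.05 limma had 26 lower and 0 higher. The falls covered 8 of 10 ATP synthase subunits, 4 of 7 genes of complex III and cytochrome c, 7 of 22 of complex I and 1 of 9 of complex IV. Without Apc_KO library 4 the count of falls was 44, and without Apc_WT library 4 it was 13. Ndufb10 of complex I was listed at 132, 150.2, 139.7 and 199 FPKM in Apc_WT and 45.5, 85.9, 63.1 and 132 in Apc_KO (log2 fold change -1.01, SE 0.27, adjusted p = 0.0081). Uqcrc1, a core subunit of complex III, fell from 282 ± 26.9 to 143 ± 33.3 FPKM. Members below every Apc_WT library numbered 46, 41, 47 and 14 of 48 in Apc_KO libraries 1 to 4, and 15 members in library 4 lay above every Apc_WT library.

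A contrast between lists was also taken within each library. Respiratory chain and cytosolic ribosomal protein genes have short transcripts of like size, with list medians of 1186.5 and 1151 bases for the longest annotated transcript. The ribosomal median minus the respiratory chain median, both as log2(FPKM + 1), was 1.33, 1.14, 1.15 and 1.14 in Apc_WT libraries 1 to 4. In Apc_KO libraries 1 to 4 it was 2.08, 1.76, 1.92 and 2.01. All Apc_KO libraries, library 4 included, lay above all controls, whereas Apc_HET spanned 1.25 to 1.60. Gene length moved with library 4 as well: genes with a longest transcript of at most 1000 bases (771 genes) differed from the Apc_WT mean by a median of 0.56 in Apc_KO library 4 and by -0.15, 0.15 and -0.09 in Apc_KO libraries 1 to 3. The part of transcript length in these results was not tested.

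**Figure D2:**
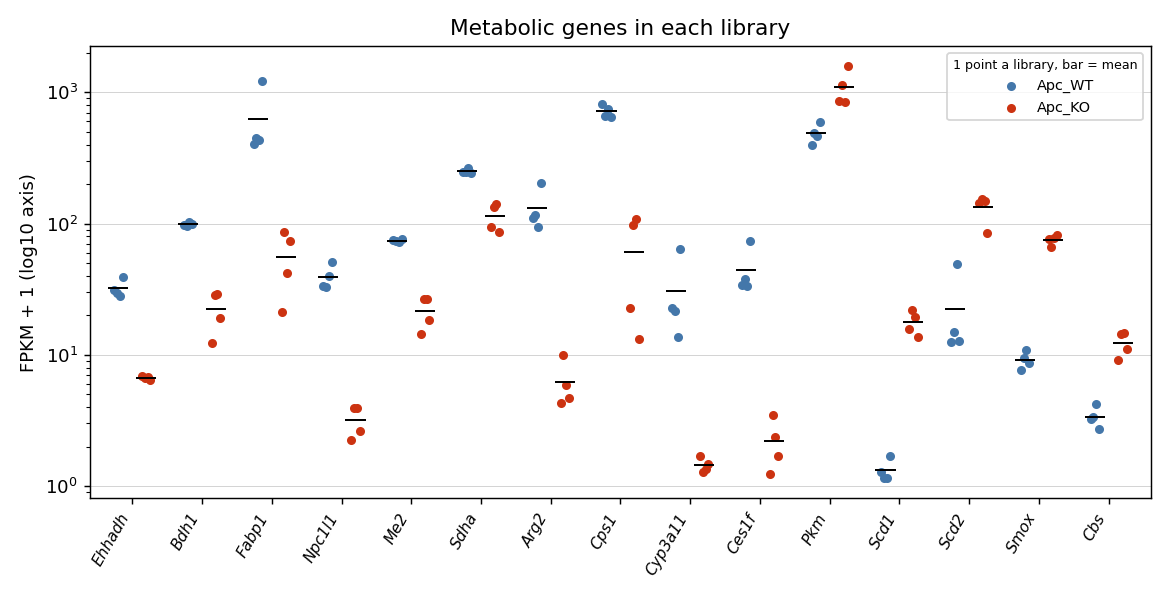
FPKM + 1 on a log10 axis for 15 metabolic genes, 1 point per library, with Apc_WT in blue, Apc_KO in red and the group mean as a black bar. Ehhadh to Ces1f lie lower in every Apc_KO library than in any control, and Pkm, Scd1, Scd2, Smox and Cbs lie higher.

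Within the urea cycle and arginine group 5 of 8 genes fell and 2 rose, with a median of -2.68. Arg2, the mitochondrial arginase, went from 110.2, 115, 93.1 and 201 FPKM in Apc_WT to 3.27, 8.94, 4.84 and 3.72 in Apc_KO (log2 fold change -4.42, SE 0.36, adjusted p = 1.1e-06). Cps1, which fixes ammonia into carbamoyl phosphate, went from 808, 654, 748 and 651 FPKM to 21.7, 96.0, 107 and 12.2. Apc_KO libraries 2 and 3 kept several times more Cps1 than libraries 1 and 4, and all 4 lay below the controls (log2 fold change -4.08, SE 0.55, adjusted p = 7.3e-05). Otc, the next enzyme, fell from 25.6 ± 3.18 to 1.14 ± 1.05 FPKM and Nags, which makes the activator of Cps1, from 19.3 ± 2.46 to 1.38 ± 1.06. In contrast Ass1, which joins citrulline and aspartate, rose from 4.76 ± 0.396 to 14.2 ± 3.76 FPKM (log2 fold change 1.37, SE 0.17, adjusted p = 3.6e-05). The whole list, with proline, glutamine and polyamine genes, had 7 rises and 10 falls of 27 with a median of 0.07, which was -0.05 with size factors.

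Polyamine and glutamine enzymes held single large rises. Smox, the spermine oxidase, was listed at 6.72, 8.53, 9.93 and 7.596 FPKM in Apc_WT and 74.8, 65.5, 76.6 and 80.8 in Apc_KO (log2 fold change 3.04, SE 0.14, adjusted p = 1.9e-08), the only one of 8 polyamine genes to pass. Gls2, the liver-type glutaminase, rose from 5.68 ± 1.77 to 17.3 ± 8.75 FPKM (1.31). Of 4 serine synthesis genes 3 rose, and Phgdh, the first enzyme from phosphoglycerate, went from 17.0, 17.0, 25.2 and 14.8 FPKM to 20.1, 68.2, 57.7 and 39.2 (log2 fold change 1.17, SE 0.31, adjusted p = 0.0077). Mthfd1l, of mitochondrial folate metabolism, rose from 7.40 ± 2.17 to 17.7 ± 3.40 FPKM. The transsulfuration enzymes moved apart: Cbs, which makes cystathionine, rose from 2.38 ± 0.629 to 11.3 ± 2.64 FPKM (log2 fold change 1.85, SE 0.20, adjusted p = 1.0e-05), and Cth, which cleaves it to cysteine, fell from 52.0 ± 8.22 to 12.2 ± 3.66 (log2 fold change -2.03, SE 0.19, adjusted p = 3.8e-06). The serine and one-carbon list as a whole had 9 rises and 6 falls of 22, a median of 0.08, and -0.02 or -0.11 with size factors or quantile normalization.

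Of 32 nucleotide synthesis and salvage genes 8 rose, 4 fell and 20 did not pass, beside 45.5% called over all genes tested. The rises numbered 13 without Apc_KO library 1 and the falls 7 without Apc_KO library 4. Dpyd, which starts pyrimidine breakdown, had by far the largest change of the list, from 28.9, 25.2, 23.6 and 34.6 FPKM to 3.39, 3.31, 3.32 and 2.27 (log2 fold change -2.83, SE 0.15, adjusted p = 5.5e-08). Among glutathione and antioxidant genes 8 of 27 fell and 3 rose, and the rises numbered 8 without Apc_KO library 1 and 5 without Apc_KO library 4. Catalase, Cat, fell from 76.5 ± 14.3 to 25.2 ± 2.58 FPKM, and Hmox1, which degrades heme, rose from 3.25 ± 1.48 to 15.3 ± 6.99.

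Enzymes that metabolize foreign compounds fell widely. All 9 carboxylesterases tested fell, and their median of -3.34 was the lowest among the subgroups of the metabolic lists. Ces1f went from 32.8, 36.8, 32.5 and 72.5 FPKM to 0.243, 2.47, 1.37 and 0.682 (log2 fold change -4.37, SE 0.49, adjusted p = 1.6e-05) and Ces2e from 159 ± 59.96 to 8.06 ± 4.78 FPKM. Of 27 cytochrome P450 genes 16 fell and 5 rose, and all 16 falls were among the 22 that oxidize drugs and fatty acids. Cyp3a11, the main drug-metabolizing member of its family, went from 21.9, 20.7, 12.7 and 63.5 FPKM to 0.683, 0.285, 0.342 and 0.467 (log2 fold change -4.16, SE 0.49, adjusted p = 2.4e-05). Cyp2c65 fell from 45.7 ± 18.1 to 1.75 ± 1.20 FPKM and Cyp4f14, of the fatty acid ω-hydroxylase family, from 73.5 ± 35.0 to 3.32 ± 1.67. These families hold near-identical copies, and how fragments were shared among them is not given in the sources used here, so values of single members are uncertain.

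Other P450 genes rose. Cyp4b1 went from 7.06, 7.80, 4.77 and 10.2 FPKM to 35.6, 51.9, 46.4 and 46.8, and Cyp27a1, the sterol 27-hydroxylase, from 5.44, 8.29, 5.53 and 7.24 to 59.99, 24.4, 25.2 and 71.4 (log2 fold change 2.46, SE 0.31, adjusted p = 4.3e-05). Among conjugating enzymes Gsta1, a glutathione transferase, fell from 111 ± 96.7 to 6.87 ± 5.26 FPKM and Ephx2, the soluble epoxide hydrolase, from 52.8 ± 13.02 to 3.74 ± 1.89 (log2 fold change -3.59, SE 0.29, adjusted p = 1.3e-06). The conjugation list had 35 falls and 3 rises of 48 members, with a median of -1.30.

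Retinoid and aldehyde metabolism had more falls than rises at each group of steps. Of 24 members 15 fell and 5 rose: 4 fell and 1 rose of 6 binding and storage genes, 6 and 1 of 9 retinol and alcohol dehydrogenases, and 5 and 3 of 9 aldehyde dehydrogenases. Rbp2, the retinol carrier of enterocytes, was listed at 163, 219.5, 216 and 564 FPKM in Apc_WT and 11.8, 53.7, 26.2 and 44.4 in Apc_KO (log2 fold change -3.08, SE 0.59, adjusted p = 0.0010). Lrat, which esterifies retinol for storage, went from 6.81 ± 1.30 to 0.620 ± 0.280 FPKM and Rdh7, a retinol dehydrogenase, from 25.001 ± 15.3 to 0.867 ± 0.274. Rdh10, which makes retinaldehyde from retinol, rose from 9.66, 10.4, 9.20 and 9.75 FPKM to 67.0, 54.8, 52.6 and 46.6 (log2 fold change 2.38, SE 0.15, adjusted p = 1.7e-07). Aldh1a2, which makes retinoic acid, was listed at 0 in all 4 Apc_WT libraries and at 4.94, 6.89, 7.75 and 10.1 FPKM in Apc_KO. Rarg, a retinoic acid receptor, went from 0.311 ± 0.0970 to 10.3 ± 1.89 FPKM.

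Glycolytic genes and those of fructose use and gluconeogenesis moved in opposite directions. Of 10 glycolysis genes 5 rose and 1 fell; of 11 fructose, galactose and gluconeogenesis genes 7 fell and 1 rose, with a median of -2.42. Pkm, the pyruvate kinase of proliferating and muscle cells, was listed at 398, 488, 465 and 594 FPKM in Apc_WT and 853, 1146, 850.1 and 1573 in Apc_KO (log2 fold change 1.15, SE 0.24, adjusted p = 0.0018). Pfkl, a phosphofructokinase, rose from 22.5 ± 3.95 to 51.1 ± 9.07 FPKM. Khk, the fructokinase that starts fructose use, went from 39.6, 42.8, 35.9 and 94.3 FPKM to 4.001, 7.04, 4.11 and 8.62 (log2 fold change -2.91, SE 0.33, adjusted p = 1.8e-05). Aldoc, the brain-type aldolase, rose from 2.89 ± 1.14 to 27.0 ± 8.43 FPKM (log2 fold change 2.84, SE 0.23, adjusted p = 1.2e-06). Among glycosyltransferases 15 of 26 fell and 3 rose, and the rises numbered 7 without Apc_KO library 4. Fut2, the fucosyltransferase of secretor antigens, went from 0.503, 0.540, 1.17 and 0.636 FPKM to 21.1, 9.84, 8.97 and 21.4 (log2 fold change 3.17, SE 0.26, adjusted p = 1.4e-06), whereas B4galnt1, the GM2 ganglioside synthase, fell from 75.2 ± 5.25 to 13.98 ± 4.84 FPKM.

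Transporters of the absorptive surface fell, and a smaller set of transporters rose. Of 51 carriers of sugars, organic acids and vitamins 32 fell and 6 rose, with a median of -0.92. Slc5a1, the sodium-coupled glucose carrier of the brush border, was listed at 88.5, 106, 102 and 167 FPKM in Apc_WT and 18.2, 18.6, 16.9 and 15.9 in Apc_KO (log2 fold change -2.63, SE 0.21, adjusted p = 9.4e-07). Slc2a2, the basolateral glucose carrier, fell from 10.1 ± 6.36 to 0.607 ± 0.208 FPKM. Slc2a1, the widely expressed glucose carrier, rose from 13.1, 13.4, 14.8 and 13.1 FPKM to 47.1, 40.8, 43.2 and 45.9 (log2 fold change 1.63, SE 0.19, adjusted p = 2.0e-05) and was the 1 riser of 12 sugar carriers. No Apc_KO library overlapped a control for these 3 genes.

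Bile acid carriers split as well. Slc51a, a subunit of the basolateral bile acid exporter, fell from 23.5 ± 9.51 to 1.06 ± 0.334 FPKM, and Slc10a2, the apical sodium-coupled bile acid carrier, went from 1.39, 0.514, 0.311 and 1.14 FPKM to 32.5, 13.96, 8.80 and 12.1 (log2 fold change 3.16, SE 0.42, adjusted p = 7.2e-05). Slc16a5, a monocarboxylate carrier family member, fell from 35.7 ± 12.9 to 3.44 ± 0.999 FPKM. Slc44a2, of the choline transporter-like family, rose from 5.16 ± 0.523 to 45.5 ± 11.4 FPKM (log2 fold change 2.89, SE 0.17, adjusted p = 1.0e-07).

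Amino acid carriers moved in both directions. Of 26 members 8 rose and 14 fell, with a median of -0.50. Slc38a4, a sodium-coupled carrier of neutral amino acids, went from 1.42, 0.846, 0.890 and 0.998 FPKM to 73.5, 65.4, 79.5 and 77.5 (log2 fold change 5.21, SE 0.12, adjusted p = 4.2e-11). Slc1a4, a neutral amino acid exchanger, rose from 3.71 ± 0.772 to 31.3 ± 8.31 FPKM and Slc6a9, a glycine carrier, from 2.92 ± 0.512 to 19.4 ± 4.50. Slc6a20a, an imino acid carrier, went from 21.1, 18.8, 13.1 and 38.1 FPKM to 0.208, 1.08, 0.660 and 0.446 (log2 fold change -3.82, SE 0.37, adjusted p = 5.0e-06), and Slc7a9, the light chain of the cystine exchanger, fell from 35.1 ± 9.47 to 3.56 ± 1.76 FPKM. Some large fold changes in this group rest on loci that cover little of the gene. The locus listed for Slc1a1 spans 11.8% of the gene and read 0.157, 196, 0 and 0 FPKM in Apc_KO against 999, 919.6, 1574 and 883 in Apc_WT. The locus for Slc38a3 spans 4.36% and read 84.4, 220.5, 15.3 and 11.4 FPKM in Apc_KO against 0.279, 0.605, 0.760 and 0.248.

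Ion carriers of the apical membrane did not move as 1 group. Of 61 ion carriers, channels and pumps 14 rose and 27 fell, with a median of -0.41. Car4, a membrane-bound carbonic anhydrase, went from 52.3, 51.3, 40.4 and 80.8 FPKM to 0.887, 1.58, 3.30 and 1.24 (log2 fold change -4.40, SE 0.40, adjusted p = 3.0e-06). Slc26a3, the chloride-bicarbonate exchanger, fell from 30.2 ± 7.84 to 1.86 ± 0.522 FPKM and Slc26a6, a related anion exchanger, from 53.1 ± 17.2 to 5.83 ± 2.002. Slc9a3, the sodium-proton exchanger that works beside Slc26a3 in salt absorption, rose from 11.9, 17.4, 25.4 and 28.4 FPKM to 189, 93.3, 123 and 145 (log2 fold change 2.70, SE 0.42, adjusted p = 2.4e-04). Slc12a4, a potassium-chloride cotransporter, was listed at 0.0541, 0.0651, 0.0580 and 0.0567 FPKM and then at 17.9, 11.1, 8.36 and 8.27.

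Metal handling had 10 rises and 16 falls of 42 members and a median of 0.02, which was -0.10 with size factors and -0.07 with quantile normalization. Over all genes tested 27.9% rose and 17.7% fell. Slc39a5, a zinc importer, fell from 68.7 ± 11.5 to 7.47 ± 2.18 FPKM and Slc30a2, which moves zinc into vesicles, rose from 12.5 ± 2.39 to 76.5 ± 23.1 (log2 fold change 2.49, SE 0.21, adjusted p = 1.7e-06). Heph, the ferroxidase needed for iron export from enterocytes, fell from 16.8 ± 1.97 to 3.4997 ± 0.650 FPKM. Lcn2, lipocalin 2, which binds iron-carrying siderophores, was at 0.763, 1.53, 2.35 and 0.564 FPKM in Apc_WT and at 43.1, 9.13, 9.75 and 33.4 in Apc_KO (log2 fold change 3.20, SE 0.45, adjusted p = 9.6e-05). Of 20 ABC transporters 6 rose and 9 fell. The sterol exporters Abcg5 and Abcg8, which form 1 heterodimer, had log2 fold changes of -2.16 and -2.15. Abcc4, which exports cyclic nucleotides and prostaglandins, rose from 0.932, 1.52, 1.67 and 1.02 FPKM to 26.2, 20.8, 20.3 and 35.1 (log2 fold change 3.52, SE 0.19, adjusted p = 4.5e-08). Among 30 mitochondrial carriers 6 rose and 10 fell. Slc25a4, the adenine nucleotide carrier of heart and muscle, rose from 14.3, 15.8, 17.3 and 15.9 FPKM to 132, 145, 112 and 272 (log2 fold change 3.22, SE 0.25, adjusted p = 9.9e-07), while Slc25a15, the ornithine carrier of the urea cycle, fell from 28.5 ± 2.44 to 7.10 ± 1.39 FPKM.

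In the EGF receptor and MAPK group all 3 receptors tested fell, 8 of 17 feedback inhibitors rose and 1 fell, and 2 of 7 ligands rose. Erbb3 was listed at 66.1, 71.5, 73.2 and 66.1 FPKM in Apc_WT and 40.4, 24.4, 32.4 and 21.3 in Apc_KO (log2 fold change -1.24, SE 0.17, adjusted p = 7.6e-05). Egfr fell from 12.01 ± 1.66 to 6.12 ± 2.62 FPKM. Dusp6, the phosphatase that is induced by ERK and inactivates it, went from 8.30, 7.88, 5.95 and 7.77 FPKM to 41.3, 44.5, 52.1 and 19.4 (log2 fold change 2.17, SE 0.29, adjusted p = 7.4e-05). Dusp4 rose from 6.70 ± 2.22 to 41.3 ± 11.4 FPKM and Dusp10, which acts on JNK and p38, from 1.40 ± 0.460 to 18.6 ± 6.22 (log2 fold change 3.003, SE 0.42, adjusted p = 1.0e-04). Among ligands Btc, betacellulin, rose from 3.83 ± 0.329 to 13.4 ± 3.57 FPKM.

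**Figure D3:**
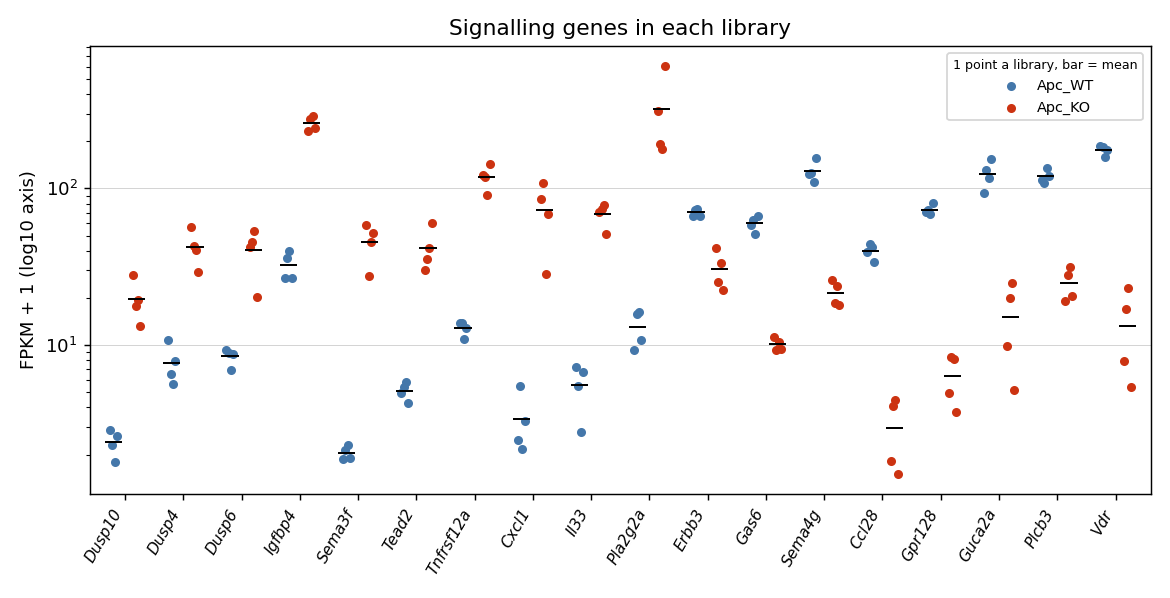
FPKM + 1 on a log10 axis for 18 signalling genes, 1 point per library, Apc_WT in blue, Apc_KO in red, with black bars at group means. The first 10 genes, Dusp10 to Pla2g2a, are higher in Apc_KO, and the last 8, Erbb3 to Vdr, are lower.

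Of 6 insulin-like growth factor binding protein genes tested 4 rose, and Igfbp5 (a locus that spans 4.86% of the gene) and Igfbp7 did not pass. Igfbp4, an inhibitory binding protein, was listed at 26.0, 35.1, 38.6 and 26.0 FPKM in Apc_WT and 230.3, 277, 291 and 243 in Apc_KO (log2 fold change 3.03, SE 0.15, adjusted p = 2.3e-08). Igfbp3 rose from 0.514 ± 0.217 to 20.8 ± 4.39 FPKM and Igfbp1 from 0.0729 ± 0.126 to 19.6 ± 8.44. Over the whole list of growth factors and receptor tyrosine kinases outside the EGF family 18 of 43 rose and 9 fell. Gas6, a vitamin K-dependent ligand, went from 57.3, 61.6, 50.3 and 66.1 FPKM to 10.3, 8.24, 9.46 and 8.48 (log2 fold change -2.56, SE 0.11, adjusted p = 1.4e-08), and its receptor Mertk, which serves the clearance of dying cells, fell with it from 13.6 ± 1.93 to 1.45 ± 0.416 FPKM.

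Guidance cues and their receptors changed in both directions. Of 25 semaphorin, netrin and slit genes 10 rose and 8 fell, with a median of 0.23, or -0.09 with quantile normalization. Sema3f, a secreted semaphorin, went from 0.881, 1.15, 1.32 and 0.889 FPKM to 57.2, 26.6, 44.5 and 50.7 (log2 fold change 4.43, SE 0.20, adjusted p = 1.8e-08). Sema4g, a membrane semaphorin, went from 123, 124, 109.6 and 156 to 24.9, 17.7, 23.0 and 16.9. Plxnb1, a semaphorin receptor, rose from 3.01 ± 0.521 to 30.3 ± 7.11 FPKM. In the Eph family, which positions cells along the crypt, 3 of 8 receptors rose and 3 of 6 ephrins fell, and the falls over the family numbered 5 without Apc_KO library 4. Ephb3, a receptor of the crypt base, rose from 21.6, 18.8, 16.1 and 19.8 FPKM to 57.1, 48.2, 61.1 and 55.9 (log2 fold change 1.497, SE 0.14, adjusted p = 4.1e-06). Efnb1, an ephrin of cells farther up, fell from 49.9 ± 3.51 to 23.9 ± 8.11 FPKM.

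Components of the Hippo and Hedgehog pathways rose on balance. Of 30 members 17 rose and 1 fell, with a median of 0.71, beside 27.9% and 17.7% over all genes tested. At the stricter minimum of 5 FPKM the rises numbered 9. The 1 fall was lost without Apc_WT library 3 (adjusted p = 0.0577) and with only the 8 Apc_WT and Apc_KO libraries (adjusted p = 0.0534). It was Nf2, the merlin tumour suppressor upstream of Hippo, which went from 31.1 ± 3.14 to 21.3 ± 5.69 FPKM (log2 fold change -0.56, SE 0.17, adjusted p = 0.020). Tead2, a DNA-binding partner of YAP, was listed at 3.95, 4.37, 4.82 and 3.26 FPKM in Apc_WT and 29.2, 34.3, 40.4 and 58.9 in Apc_KO (log2 fold change 2.99, SE 0.19, adjusted p = 1.9e-07). Ctgf, a widely used YAP target, rose from 1.85 ± 0.449 to 12.3 ± 5.73 FPKM with Apc_KO library 4 at 4.00 FPKM, the lowest of its group. Gas1, a Hedgehog coreceptor, rose from 0.0357 ± 0.0382 to 4.07 ± 2.43 FPKM.

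Of 39 TNF and NF-kB genes 12 rose and 7 fell, shares near the 27.9% and 17.7% over all genes tested. Tnfrsf12a, the receptor for TWEAK, went from 12.8, 12.8, 9.88 and 11.9 FPKM to 121, 117, 89.9 and 143 (log2 fold change 3.20, SE 0.40, adjusted p = 4.0e-05). Tnfrsf19, a receptor of crypt base cells, rose from 8.39 ± 1.67 to 70.6 ± 15.9 FPKM, and Tnfrsf11b, the decoy receptor osteoprotegerin, from 0.509 ± 0.297 to 24.2 ± 5.64 (log2 fold change 4.05, SE 0.21, adjusted p = 4.0e-08).

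Chemokine genes moved in both directions. Over 45 chemokine, cytokine and receptor genes 18 rose and 14 fell, with a median of 0.10, or -0.17 with quantile normalization. Cxcl1, a neutrophil attractant, was listed at 1.47, 4.50, 1.18 and 2.26 FPKM in Apc_WT and 84.0, 108, 27.2 and 67.6 in Apc_KO (log2 fold change 4.38, SE 0.53, adjusted p = 3.0e-05). Cxcl10, an interferon-induced chemokine, rose from 6.71 ± 2.35 to 64.0 ± 42.6 FPKM and Il33, an alarmin, from 4.56 ± 1.98 to 67.5 ± 11.8 (log2 fold change 3.69, SE 0.37, adjusted p = 6.8e-06). Ccl25 and Ccl28, which draw lymphocytes to the gut, fell: Ccl25 from 66.3 ± 18.5 to 4.98 ± 1.71 FPKM and Ccl28 from 38.3, 43.5, 41.2 and 33.0 to 0.830, 3.10, 3.45 and 0.510 (log2 fold change -3.90, SE 0.30, adjusted p = 8.2e-07). Beside these changes the leukocyte marker sums given above overlapped between genotypes.

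Lipid mediator genes moved apart in the same way, with 7 rises and 8 falls of 20. Pla2g2a, a secreted phospholipase gene of Paneth cells, went from 8.33, 14.7, 15.3 and 9.76 FPKM to 313, 191, 179 and 601 (log2 fold change 4.49, SE 0.34, adjusted p = 7.6e-07). Alox12, a lipoxygenase, rose from 0.0590 ± 0.0263 to 14.3 ± 6.12 FPKM. Hpgd, which inactivates prostaglandins, fell from 27.6 ± 4.42 to 8.69 ± 3.92 FPKM (log2 fold change -1.63, SE 0.24, adjusted p = 1.4e-04).

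Among 38 other G protein-coupled receptors and ligands 15 rose and 9 fell. Gpr128, an adhesion receptor of the intestine, fell from 69.3, 71.7, 67.7 and 79.3 FPKM to 3.96, 7.38, 7.14 and 2.74 (log2 fold change -3.61, SE 0.23, adjusted p = 1.6e-07), and Vipr1, the receptor for vasoactive intestinal peptide, from 59.1 ± 2.91 to 11.2 ± 3.43 FPKM. Gpr64, another adhesion receptor, rose from 0.167 ± 0.0422 to 12.7 ± 5.73 FPKM. In cyclic nucleotide and calcium signalling 17 of 43 rose and 16 fell. Guca2a and Guca2b, the guanylin and uroguanylin hormones, fell: Guca2a went from 92.6, 131, 115 and 154 FPKM to 8.93, 19.1, 24.0 and 4.20 (log2 fold change -3.26, SE 0.39, adjusted p = 2.9e-05), and Guca2b from 110.2 ± 44.8 to 23.3 ± 3.80. Adcy1, an adenylate cyclase, rose from 0.231 ± 0.0635 to 7.68 ± 1.77 FPKM, while Pde3a, a phosphodiesterase, fell from 8.84 ± 1.48 to 0.776 ± 0.235 and Plcb3, a phospholipase C, from 118 ± 11.9 to 23.8 ± 5.92 (log2 fold change -2.29, SE 0.16, adjusted p = 3.4e-07).

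Of 30 nuclear receptors 14 fell and 5 rose: 9 fell and 2 rose of 15 that sense lipids, bile acids and vitamins, and 5 fell and 3 rose of 15 steroid, thyroid, orphan and clock receptors. The difference between these 2 groups was not tested. Vdr, the vitamin D receptor, was listed at 185, 184, 157 and 175 FPKM in Apc_WT and 6.89, 15.9, 22.1 and 4.40 in Apc_KO (log2 fold change -3.95, SE 0.35, adjusted p = 2.7e-06). Hnf4g, which maintains enterocyte genes, fell from 51.6 ± 7.41 to 9.04 ± 2.44 FPKM, and Nr1i3, a sensor of foreign compounds, from 13.7 ± 6.77 to 1.099 ± 0.480.

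Structural genes rose mostly in the matrix. Of 44 integrin and matrix genes 28 rose and 4 fell, with a median of 0.97, beside 27.9% and 17.7% over all genes. Of 14 laminin and collagen genes 9 rose and none fell. Among the 44 were 5 off-to-on genes, Spock2 and Ltbp4 included, which were below 1 FPKM in all Apc_WT libraries. Such genes were tested only through libraries of other genotypes and could not count as falls. At the stricter minimum of 5 FPKM the falls numbered 2. Spock2, a secreted proteoglycan, went from 0.153, 0.157, 0.259 and 0.281 FPKM to 71.3, 37.4, 84.6 and 31.6 (log2 fold change 5.45, SE 0.26, adjusted p = 2.3e-08). Lama5, the laminin α5 chain of the epithelial basement membrane, went from 1.33, 1.68, 2.33 and 1.15 to 62.9, 17.5, 21.3 and 59.2 FPKM, where libraries 1 and 4 were well above libraries 2 and 3. Ltbp4, which anchors latent TGF-β, rose from 0.193 ± 0.0686 to 16.2 ± 7.19 FPKM, and Nid2, a basement membrane nidogen, fell from 4.56 ± 0.321 to 0.316 ± 0.138. Endothelium and stroma marker sums, given above, were higher in Apc_KO beside these genes, and Vim held most of the stroma sum of 136 to 164 FPKM. At an unadjusted p under 0.05 limma had 4 of 7 tested stroma and smooth muscle markers higher and 1 lower. Vim, which connective tissue cells express, rose from 11.6 ± 5.48 to 121 ± 8.85 FPKM (log2 fold change 3.37, SE 0.47, adjusted p = 9.1e-05), and of the endothelium markers Cdh5 went from 0, 0.0158, 0 and 0 to 27.6, 19.7, 14.2 and 29.3. Flt1, Tek and Prox1 also rose, and Vwf and Esam did not pass. Lyve1 fell (log2 fold change -0.91, adjusted p = 0.029), a call lost without Apc_WT library 1, 2 or 4 or Apc_KO library 1 or 4, at adjusted p between 0.0536 and 0.0778. Array weights lost the Lyve1 call as well (adjusted p = 0.0982). The part of these cell types in the matrix result was not tested.

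Keratin and junction genes moved in both directions. Krt23 was listed at 12.1, 11.2, 7.01 and 11.3 FPKM in Apc_WT and 124, 146, 115 and 248 in Apc_KO (log2 fold change 3.76, SE 0.29, adjusted p = 9.3e-07), and Krt20, a keratin of mature surface cells, fell from 77.9 ± 31.5 to 19.7 ± 7.22 FPKM. Of 33 claudin and junction genes 13 rose and 12 fell. Cldn4, a sealing claudin, went from 29.1, 38.8, 18.1 and 37.3 FPKM to 688, 557, 436 and 671 (log2 fold change 4.24, SE 0.65, adjusted p = 1.9e-04). Cldn15, a pore-forming claudin of the small intestine, went from 220.4, 255, 227 and 257 to 16.9, 29.9, 32.4 and 15.1 (log2 fold change -3.36, SE 0.21, adjusted p = 1.8e-07). Both genes had all 4 Apc_KO libraries clear of the controls, in opposite directions.

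Proteases changed in both directions. Of 55 proteases and inhibitors 26 rose and 13 fell. Plat, tissue plasminogen activator, went from 3.62, 1.69, 0.327 and 1.38 FPKM to 130.3, 86.7, 68.7 and 187 (log2 fold change 5.47, SE 0.56, adjusted p = 8.2e-06), and Ctsl, a lysosomal cysteine protease, rose from 8.19 ± 2.13 to 173 ± 66.0 FPKM. Mep1b, a brush border metalloprotease, fell from 68.1 ± 35.7 to 6.16 ± 3.78 FPKM (log2 fold change -3.33, SE 0.49, adjusted p = 1.5e-04). Mmp7, the matrilysin of Paneth cells, was listed at 1101, 175, 230.4 and 1061 FPKM in Apc_KO against 77.2, 163, 175 and 116 in Apc_WT. Libraries 1 and 4 held 4 or more times as much as libraries 2 and 3, and the call was lost with array weights (adjusted p = 0.0683). Of 18 microvillus genes 13 fell and 3 rose, with a median of -1.30. Myo1a, the brush border myosin, went from 183, 185, 195 and 257 FPKM to 37.4, 35.2, 34.3 and 45.2 (log2 fold change -2.39, SE 0.18, adjusted p = 6.3e-07), and Fscn1, an actin bundler of protrusions, rose from 0.169 ± 0.0984 to 7.82 ± 2.41 FPKM.

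Genes of protein synthesis and turnover differed by list. None of 47 cytosolic ribosomal protein genes passed limma's test in either direction, 1 was higher at an unadjusted p under 0.05, and their median was 0.29. Without Apc_KO library 1 or without library 3 the list had 1 rise. In Apc_KO libraries 1 to 4 the ribosomal members above every Apc_WT library numbered 1, 37, 1 and 47, and those below numbered 34, 0, 18 and 0. Of 29 proteasome genes 5 rose and 24 did not pass, and the rises numbered 18 without Apc_KO library 1, 3 without Apc_KO library 2 and 2 without Apc_WT library 1. Endoplasmic reticulum and unfolded protein genes gave 4 rises and 6 falls of 31, and the rises numbered 1 or 2 when Apc_WT library 1, 2 or 3 or Apc_KO library 2, 3 or 4 was left out. Lysosome and autophagy genes rose more often, 16 of 32 with 2 falls. Sqstm1, the autophagy receptor p62, was listed at 53.9, 50.2, 38.8 and 59.1 FPKM in Apc_WT and 187, 123, 109 and 166 in Apc_KO (log2 fold change 1.498, SE 0.24, adjusted p = 2.6e-04), and Gabarapl1, a protein of the autophagosome membrane, rose from 11.7 ± 1.39 to 46.3 ± 4.27 FPKM.

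Replication and mitosis genes mostly did not pass. Of 60 members 1 rose, 6 fell and 53 did not pass. Mki67, the proliferation antigen, had 63.5, 46.9, 60.1 and 44.4 FPKM in Apc_WT and 19.4, 41.9, 47.5 and 27.7 in Apc_KO (log2 fold change -0.70, SE 0.24, adjusted p = 0.028). The Mki67 call was lost without Apc_WT library 1 or 3 or Apc_KO library 1 or 4, at adjusted p between 0.0579 and 0.0781. It was also lost with only the 8 Apc_WT and Apc_KO libraries (adjusted p = 0.0666) and with array weights (0.108). In Apc_KO libraries 1 to 4, 58, 7, 8 and 46 of the 60 members lay below every Apc_WT library, and 2, 31, 32 and 6 lay above. Falls numbered 13 without library 2 and 11 without library 3, and 3 without library 1 or without Apc_WT library 3; rises numbered 6 without Apc_KO library 1.

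Of 79 developmental transcription factors tested 47 rose and 14 fell, with a median of 0.94, beside 27.9% and 17.7% over all genes tested. Factors silent in Apc_WT were tested only where other genotypes reached the minimum level. At the stricter minimum of 5 FPKM the rises numbered 29. Msx1, a homeobox factor of limb and tooth buds, was listed at 0.228, 0.195, 0.193 and 0.430 FPKM in Apc_WT and 81.0, 120.4, 100.6 and 88.0 in Apc_KO (log2 fold change 6.27, SE 0.15, adjusted p = 8.1e-11). Gbx2, a homeobox factor of the early brain, went from 0.0638, 0, 0.0342 and 0 to 76.7, 40.2, 45.0 and 66.9. Prox1, known from lymphatic endothelium and from colon tumours, went from 1.17, 1.13, 1.31 and 0.684 to 169.5, 95.7, 136 and 69.7 (log2 fold change 5.77, SE 0.33, adjusted p = 8.0e-08). Etv5, an ETS factor downstream of FGF and ERK, rose from 1.91 ± 0.280 to 66.0 ± 18.9 FPKM. Factors of the mature intestine were among those that fell. Cdx1, a homeobox factor of intestinal identity, went from 88.9, 93.7, 108 and 95.2 FPKM to 37.1, 38.0, 47.2 and 37.3 (log2 fold change -1.25, SE 0.11, adjusted p = 3.0e-06), and Isx, an intestinal homeobox factor, fell from 12.9 ± 1.36 to 2.86 ± 0.768. Barx2 fell from 13.8 ± 2.40 to 1.13 ± 0.724 FPKM.

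Products of goblet, enteroendocrine and tuft cells mostly fell, and those of Paneth cells less often. Of 47 members 33 fell and 5 rose, beside 17.7% and 27.9% over all genes tested: 10 of 13 goblet, 13 of 14 enteroendocrine, 3 of 10 Paneth and 7 of 10 tuft genes fell. At an unadjusted p under 0.05 limma had 1 goblet, 0 enteroendocrine, 2 Paneth and 2 tuft genes higher. Gip, an incretin hormone, went from 94.7, 171, 138 and 531 FPKM to 0.945, 38.6, 12.05 and 2.15 (log2 fold change -4.64, SE 0.81, adjusted p = 5.2e-04), Sst, somatostatin, whose locus spans 72.8% of the gene, fell from 62.8 ± 45.1 to 2.61 ± 2.97 FPKM, and Fcgbp, a mucus component, went from 423, 358, 681 and 413 to 8.997, 61.9, 77.7 and 13.4. Avil, an actin-binding protein of tuft cells, rose from 8.93 ± 1.11 to 69.0 ± 25.2 FPKM (log2 fold change 2.77, SE 0.25, adjusted p = 2.9e-06).

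A set of genes went from off to on. Off was taken as below 1 FPKM in all 4 Apc_WT libraries and on as at least 5 FPKM in all 4 Apc_KO libraries; these genes were selected by their values and are given as a description, with no test. The class held 122 genes, with Apc_KO means of 6.24 to 303 FPKM and a median of 13.99; 38 averaged at least 20 FPKM and 10 at least 50. With limits of 0.5 and 10 FPKM it held 38 genes. By annotation 115 were protein-coding and 7 predicted or noncoding, and for 25 the listed locus spans less than 80% of the gene. All 4 Apc_HET libraries were also below 1 FPKM for 98 of the 122. At the border lay Podxl, with a lowest Apc_KO library of 5.08 FPKM, and Adcy1 with 5.14, both inside; just outside lay Aldh1a2 with 4.94 and Padi4 with 4.74.

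By Apc_KO mean the 5 highest were Notum, Wfdc18, Sox17, Nkd1 and Msx1. Notum, a secreted enzyme that inactivates Wnt ligands, was listed at 0.105, 0.284, 0.169 and 0.372 FPKM in Apc_WT, 0.303, 0.168, 0.107 and 0.238 in Apc_HET libraries 1 to 4 and 348, 232, 307 and 324 in the Apc_KO libraries. No control library reached 0.5 FPKM, and the 4 Apc_KO libraries lay within a factor of 2 of each other. Sox17, an endoderm transcription factor, read 0, 0.0242, 0.00720 and 0.0169 FPKM in Apc_WT and 111, 104, 81.0 and 129 in Apc_KO. Nkd1, an intracellular Wnt inhibitor, read 0.831, 0.760, 0.742 and 0.884 and 111, 70.2, 91.5 and 123. Wfdc18, a small secreted protein with a protease inhibitor domain, read 0.192, 0.174, 0.310 and 0.242 and then 83.5, 60.2, 70.9 and 344, with library 4 several times above the others. Further members acting outside the cell on Wnt signals were Wif1 (0.211 ± 0.101 and 28.4 ± 3.94 FPKM), Dkk3 (0.0995 ± 0.0640 and 30.5 ± 9.66) and the ligand Wnt6 (0.330 ± 0.0609 and 26.4 ± 12.7, from a locus that spans 43.4% of the gene).

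**Figure D4:**
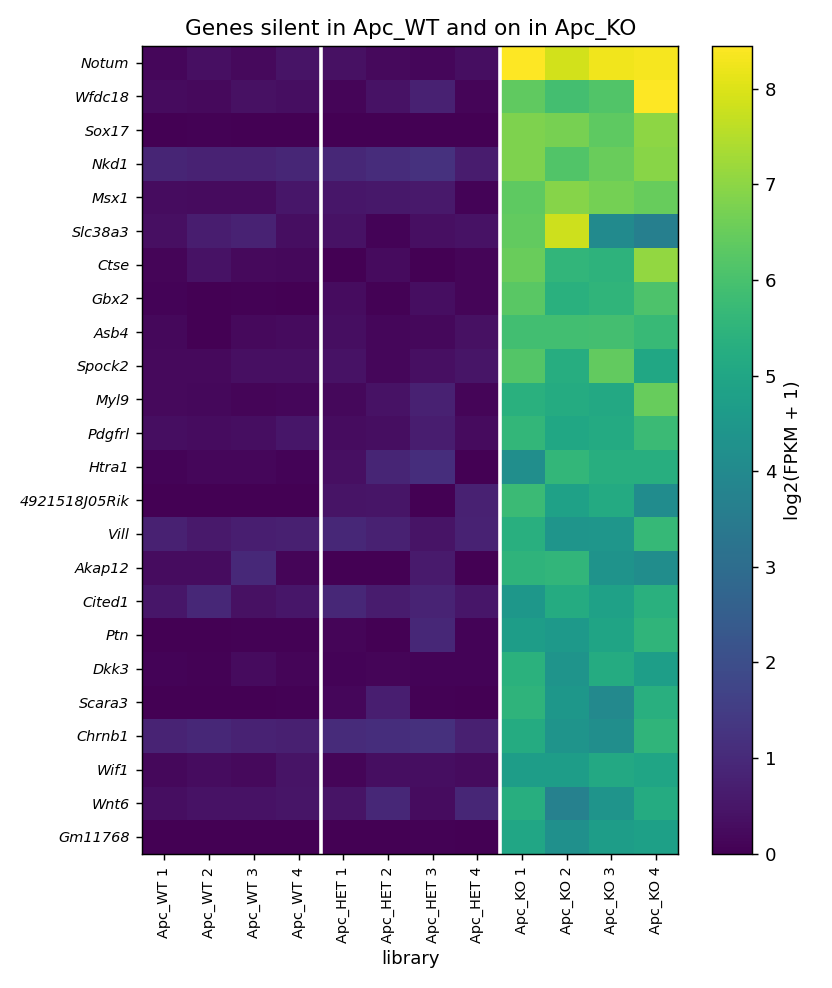
log2(FPKM + 1) in all 12 libraries for 24 of the 25 genes of the off-to-on class with the highest Apc_KO means, 1 row per gene and white lines between genotypes. The Apc_WT and Apc_HET columns are dark for nearly all of them, and the 4 Apc_KO columns are bright with differences between libraries.

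Over functions, 84 of the 122 were in none of the gene lists. The class holds 0.941% of all genes tested. It took 6 of 79 developmental transcription factors (Msx1, Gbx2 and Sox17 among them), 5 of 44 integrin and matrix genes and 4 of 55 proteases and inhibitors. Markers of other cell types were in it too: Cdh5 and Flt1 of 7 tested endothelium markers and Pdgfra of 7 tested stroma and smooth muscle markers. Pdgfra, a growth factor receptor of connective tissue cells, read 0.0604, 0, 0 and 0 FPKM in Apc_WT and 18.1, 34.9, 7.81 and 8.40 in Apc_KO, from a locus that spans 30.6% of the gene. The part of those cell types in this class was not tested. Ctse, cathepsin E, an aspartic protease, read 0.0895, 0.339, 0.173 and 0.135 FPKM in Apc_WT and 91.3, 46.0, 42.6 and 136 in Apc_KO, from a locus that spans 36.6% of the gene. Htra1, a secreted serine protease, had a mean of 35.2 ± 12.9 FPKM in Apc_KO, Asb4, a ubiquitin ligase adaptor, 56.8 ± 3.98, and Igf2bp1, an RNA-binding protein of embryonic tissue, 11.1 ± 4.65, the last from a locus that spans 8.81% of the gene.

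Promoter sequences of 4 members are shown for the start-proximal TCF/LEF motif, the DNA word that β-catenin's partners read. Promoters were taken from RefSeq on GRCm38.p6, 250 bases before to 50 after each start, and searched on both strands for the word CTTTGAA and for the words CTTTGAT (the last base changed), CTTTGTA (the one before it changed) and also CTTTGTT (both of them changed). No word contains another. Below are the 250 bases before the start, 5′ to 3′, with the motif in capitals. Spock2 lies at chr10:60106007-60106256, Bpifb5 at chr2:154223492-154223741, T at chr17:8434173-8434422 and Nkd1 at chr8:88527383-88527632, all on the plus strand. Spock2, Bpifb5 and T hold 1 motif each. The Nkd1 sequence holds none, but it precedes a start inside the gene, whose annotated start is at base 88521342. The sequence before that annotated start is not shown. Bpifb5, a secreted lipid-binding family member, and T, the mesoderm factor brachyury, were named after their values were seen.
Spock2: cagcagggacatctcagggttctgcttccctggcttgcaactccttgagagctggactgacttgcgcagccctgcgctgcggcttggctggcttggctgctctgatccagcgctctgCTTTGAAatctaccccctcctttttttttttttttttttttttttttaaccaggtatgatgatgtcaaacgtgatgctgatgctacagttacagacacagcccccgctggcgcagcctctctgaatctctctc
Bpifb5: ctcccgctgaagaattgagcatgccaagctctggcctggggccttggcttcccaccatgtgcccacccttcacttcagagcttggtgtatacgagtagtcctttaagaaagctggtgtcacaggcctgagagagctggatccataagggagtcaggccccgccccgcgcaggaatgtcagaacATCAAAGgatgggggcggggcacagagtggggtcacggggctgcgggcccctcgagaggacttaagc
T: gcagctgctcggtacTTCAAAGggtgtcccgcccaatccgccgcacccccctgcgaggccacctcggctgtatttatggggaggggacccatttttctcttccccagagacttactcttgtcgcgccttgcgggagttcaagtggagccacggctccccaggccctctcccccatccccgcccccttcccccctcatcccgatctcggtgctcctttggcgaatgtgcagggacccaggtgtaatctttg
Nkd1: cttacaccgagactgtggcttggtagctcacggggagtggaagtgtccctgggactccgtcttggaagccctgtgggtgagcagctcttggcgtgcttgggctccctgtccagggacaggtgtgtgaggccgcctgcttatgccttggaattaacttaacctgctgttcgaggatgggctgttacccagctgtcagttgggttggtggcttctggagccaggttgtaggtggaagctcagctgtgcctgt

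Counted from the start, the motif begins at base -133 in Spock2, at -67 in Bpifb5 and at -235 in T. In Bpifb5 and T it is read on the minus strand. T was listed at 0, 0.0944, 0 and 0.0219 FPKM in Apc_WT and 17.0, 9.67, 15.2 and 20.8 in Apc_KO, and Bpifb5 at 0, 0, 0 and 0 and 17.3, 16.7, 24.3 and 24.2. Of the 122 genes 81 matched a RefSeq promoter, with 108 promoters between them. The motif was in 14 of the 108 (12.96%), in 1393 of 11686 promoters of genes tested (11.9%) and in 5544 of all 32851 promoters (16.9%). The share in the off-to-on class was near that of the genes tested, and a match is a description of letters only.

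The reverse class was small. It held 12 genes that were at least 5 FPKM in all Apc_WT libraries and below 1 in all Apc_KO libraries, 22 genes without Apc_KO library 2, and none at limits of 10 and 0.5 FPKM. They were Cyp3a11, Cyp3a25, Mep1a, Slc2a2, Sycn, Pde3a, Adh4, Ugt2a3, Gm11695, Slc5a11, Zc3h12d and Lrat. Drug, alcohol and retinol metabolism (Cyp3a11, Cyp3a25, Ugt2a3, Adh4, Lrat) and sugar transport (Slc2a2, Slc5a11) account for most of them. All 4 Apc_HET libraries held at least 5 FPKM of 5 of the 12.

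Apc_KO libraries differed more among themselves than did control libraries. Pearson correlations across genes of log2(FPKM + 1), for which genes are not independent replicates, ran from 0.963 to 0.977 between Apc_WT libraries, from 0.941 to 0.981 between Apc_HET libraries and 0.913 to 0.961 between Apc_KO libraries. The median gene's SD of log2(FPKM + 1) was 0.164 in Apc_WT and 0.325 in Apc_KO, with 0.131 in Apc_HET. The SD was larger in Apc_KO than in Apc_WT for 10341 genes (79.8%). Without Apc_KO library 4 that share was 64.7% and the median Apc_KO SD 0.235, and without Apc_KO library 1 they were 71.5% and 0.284. An SD above 1 was found for 386 genes in Apc_KO, 181 in Apc_WT and 225 in Apc_HET. Many of the most variable loci cover only part of a gene: 18 of the 20 named for the largest spread span under 80% of it. Among the 10216 genes spanned to at least 80%, the median SDs were 0.310 and 0.152, and 129 genes against 45 had an SD above 1.

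Libraries 2 and 3 were the closest pair of Apc_KO libraries. Their correlation was 0.961, with 3.36% of genes more than 2-fold apart, whereas the other 5 pairs had correlations of 0.913 to 0.931 and 8.5% to 15.2% of genes that far apart. The first 3 principal components of the 12 libraries carried 63.9%, 9.19% and 6.76% of the variance. Single genes of the crypt and of secretory cells show the range. Olfm4 was at 106, 674, 702 and 81.7 FPKM in Apc_KO libraries 1 to 4, Fcgbp at 8.997, 61.9, 77.7 and 13.4 and Gcg, the glucagon precursor, at 0.466, 11.4, 8.27 and 0.0411. Lcn2 and Mmp7, given above, were highest in libraries 1 and 4, the ones lowest in Olfm4, and Cps1 was highest in libraries 2 and 3. Across all genes libraries 1 and 4 were far apart, at a correlation of 0.914 with 15.2% of genes more than 2-fold apart. On the component that carried 9.19% of the variance they scored 28.6 and -42.4. Among the 386 genes with an SD above 1 in Apc_KO, the highest pair was 2 and 3 for 104 and 1 and 4 for 87. It was 1 and 2 for 76, 2 and 4 for 72, 1 and 3 for 38 and 3 and 4 for 9.

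The genes that fell most left a residue that differed by library. For 323 genes that fell at least 4-fold on this scale from an Apc_WT mean of at least 5 FPKM, the median share of the Apc_WT mean still present was 6.64%, 13.7%, 13.2% and 8.39% in Apc_KO libraries 1 to 4. Library 2 was the highest for 115 of them and library 3 for 123, and library 1 was the lowest for 193 and library 4 for 99. For 536 genes that rose at least 4-fold, the median level as a share of the Apc_KO mean was 108%, 85.8%, 81.4% and 108%, with library 1 the highest for 172 and library 4 for 206. Off-to-on genes followed the same order, with median levels of 16.9, 11.99, 11.7 and 15.2 FPKM and library 1 the highest for 46 genes and library 4 for 42. These shares describe genes chosen by the same libraries. No label tells the 4 Apc_KO libraries apart beyond their numbers.

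**Figure D5:**
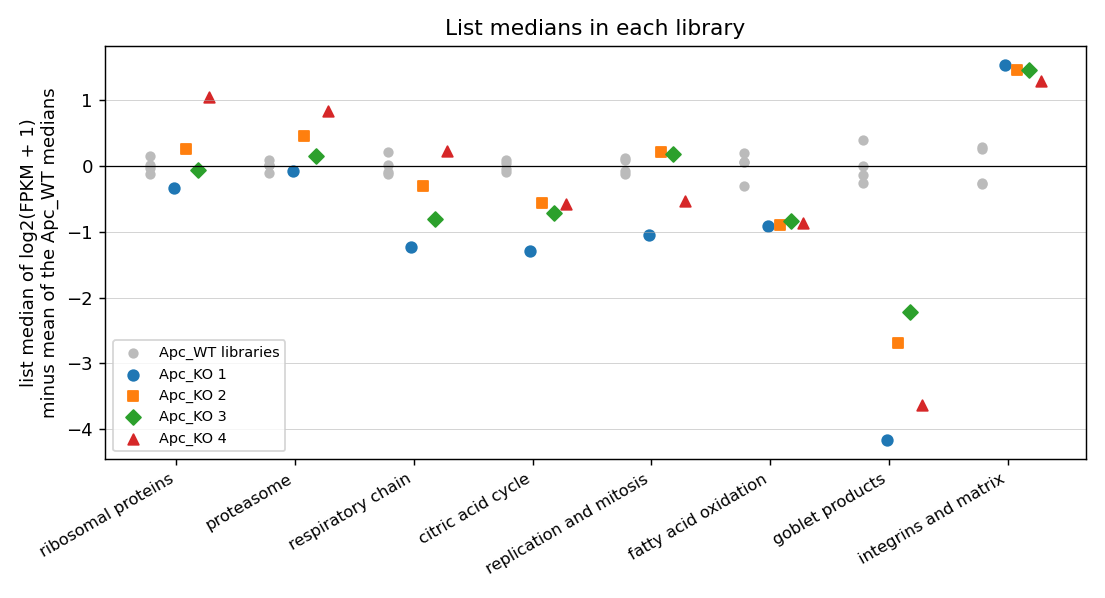
Median log2(FPKM + 1) of 8 gene groups in each Apc_WT (grey) and Apc_KO (coloured) library, minus the mean of the Apc_WT medians. The citric acid cycle and fatty acid oxidation groups are below the controls in all 4 Apc_KO libraries, while Apc_KO ribosomal medians, from 8.24 to 9.64 before the subtraction, lie on both sides of them.

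By group the libraries differed in their own ways. Citric acid cycle medians were 5.84, 6.56, 6.41 and 6.55 on the log2(FPKM + 1) scale in Apc_KO libraries 1 to 4, all under the lowest Apc_WT library at 7.04. Ribosomal medians were 8.24, 8.84, 8.51 and 9.64 against 8.46 to 8.74 in Apc_WT, so library 1 lay below and library 4 well above the controls. Fatty acid oxidation genes were low in all of them: 26, 26, 28 and 22 of 33 members lay below every Apc_WT library.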

How the data were processed

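Random-primed cDNA of 12 libraries was sequenced. The authors deposited 1 FPKM value per locus and library, per the file headers. The submitters' processing notes list Cuffdiff and Cufflinks with TopHat and Bowtie, and the mm10 build (GRCm38). Versions, annotation, use of strand and any scaling between libraries are not given in the sources used here. Locus numbers differ slightly by genotype (22555 for Apc_WT and 22552 for Apc_KO), and whether all genotypes share a scaling was not stated. Absolute read depth is unknown, hence no counting interval is given; total FPKM ran from 391710 to 518428 per library. Genes at 1 FPKM or more numbered 12085 to 12266 for Apc_WT and 12711 to 12876 for Apc_KO.

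Loci were summed per gene name: of 14499 names, 295 had other loci in some genotype and 122 held a failed estimate, and none of these entered the fit. A gene was kept where 4 or more libraries reached 1 FPKM. The package limma (version 3.58.1, R version 4.3.3) compared log2 FPKM values, after a pseudocount of 1, across genotypes with 12 libraries in a single model and a mean-variance trend; p-values are two-sided with Benjamini-Hochberg adjustment over all kept genes and a threshold of 0.05. Apc was also tested by exact permutation. The fitting script was checked on simulated data. Alternatives were size factors, quantile normalization, a pseudocount of 0.1, other filters, array weights, only 8 libraries, a replicate block and leaving out each library.

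The gene lists, 43 of function and 7 of cell types, and the members and tests were chosen with earlier results of these data known. Named genes are, by rule, the 25 of largest change in each direction, up to 5 called members per list and direction, the 25 highest of each switched class, the 20 of largest spread in Apc_KO, and Apc, Lgr5 and Olfm4. Bpifb5, T, Padi4, Podxl, Igfbp5 and Igfbp7, and marker genes that did not pass, lie outside this rule and were named after their values were seen. Individual values of a few rule-named genes are not reported here. Promoters and annotation are from RefSeq on GRCm38.p6; the share of a gene that its listed locus spans is given for genes in the text that are under 80%.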

Additional observations from a re-analysis of the deposited data

Results flagged for a closer look

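In 392 groups of 4 libraries, for the genes named above, 25 had 1 library whose gap to the nearest other exceeded Dixon's critical value for 4 values (6.38%). Chance flags about 1 in 20 groups.

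Apc_WT library 4 was the library apart in 8 of these groups and was the highest each time. It held 1218 FPKM of Fabp1, 72.5 of Ces1f, 256 of Gsta1, 19.6 of Slc2a2 and 14.8 of Slc5a11, all genes of absorptive cells. It also held 0.954 FPKM of Tnfrsf11b, 0.430 of Msx1 and 0.0286 of Igf2bp1, where all controls are near 0. Apc_WT library 3 stood apart with 48.1 FPKM of Scd2, above the others, and with 7.01 of Krt23 and 9.59 of Gabarapl1, below them. Apc_WT library 2 was the highest for Igfbp1 at 0.261 FPKM and for Cdh5 at 0.0158, and Apc_WT library 1 for Pdgfra at 0.0604.

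Among Apc_KO libraries, library 4 stood apart with 107 FPKM of Avil, 84.4 of Scd2, 28.9 of Guca2b, 4.00 of Ctgf and 2.27 of Dpyd. Library 1 was the lowest for Cat at 21.4 FPKM, Slc26a3 at 1.09, Slc51a at 0.563 and Rdh7 at 0.457. Library 3 stood apart for Cdx1 at 47.2 FPKM and library 2 for Slc1a1 at 195.78, from a locus that spans 11.8% of that gene.

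Among 3203 loci without a gene name, which no comparison used, 5 were below 1 FPKM in all Apc_WT and at least 5 FPKM in all Apc_KO libraries, and 1 showed the reverse. The highest, at chr1:190456192-190465742 on GRCm38, read 31.9, 28.2, 38.5 and 21.6 FPKM in Apc_KO libraries 1 to 4.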

How the results depend on the processing

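The count of 5904 called genes stayed within 1.5 times under each setting tried: 5681 with size factors, 5807 with quantile normalization, 5900 with a pseudocount of 0.1, 4363 at a minimum of 5 FPKM, 6296 with no filter, 5000 with 8 libraries and 6445 with array weights. Without 1 library in turn it ran from 5244 to 6269. The off-to-on and on-to-off classes moved to 38 and 0 genes with limits of 0.5 and 10 FPKM, because the limits are stricter; leaving out 1 replicate gave 12 to 22 on-to-off genes, the highest without Apc_KO replicate 2. Respiratory chain falls, 20 as reported, were 36 with quantile normalization, 41 with array weights and 13 with 8 libraries; proteasome rises, 5 as reported, were 9, 15 and 2; the cause was not tested. Of 188 named genes called, 6 lost the call in some setting (Acadl, Lgr5, Lyve1, Mki67, Mmp7, Nf2) and none of the 192 with a fit changed direction in the settings run.

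Same-numbered Apc_WT and Apc_KO libraries correlated in their deviations from the group means at 0.18, -0.10, 0.12 and 0.15 for numbers 1 to 4. Because number 2 did not exceed 0.1 and no label ties the numbers to a shared source, the libraries were not treated as paired. For 3 of 4 numbers the same-numbered library correlated best, and whether same-numbered libraries share a source was not tested. With the replicate block 5681 genes were called. The unknown depth limits what can be said of genes near 0 FPKM.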
